A study of Mus musculus with 6 samples.

Results

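The interferon response of crypt cells was read here from 9 genes, Stat2, Irf1, Irf7, Irf9, Isg15, Ifit1, Ifit3, Bst2 and Zbp1, chosen by symbol among the 28564 genes of the count table. All 9 were in the table. A filter on low counts kept 15122 genes for testing, among them 8 of the 9; Ifit3 fell below it and is described by its counts. The RNA came from epithelial cells of small intestinal crypts of male mice aged 13 weeks. One group was wild type on the C57Bl/6 background and the other Apln-/-, lacking the secreted peptide apelin, with 3 libraries each that the labels call biological replicates. In both groups the cells had been sorted as live singlets positive for EpCAM and CD44 and negative for the endothelial marker CD31 and the leukocyte marker CD45, and their RNA was amplified before library preparation. The labels name no infection or interferon treatment. The labels do not state how many animals gave each library, and the p-values measure only the spread between these libraries, which may be technical.

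Interferons are secreted proteins that bind receptors on the cell surface and switch on a large set of antiviral genes through Janus kinases and Stat transcription factors. Type I and type III interferons act through a complex that contains Stat2 and Irf9 and binds a DNA element called the interferon-stimulated response element, while interferon gamma acts mainly through another element, the gamma-activated site. Gut epithelium is known to respond strongly to type III interferons and to keep some expression of these genes in the absence of infection.

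The promoters of the 9 genes are shown first, since they differ in the response elements that they contain. Windows of 250 bases before each annotated RefSeq start (build GRCm38.p6) were available for 8 of the 9 genes, 10 windows in all, and were searched on both strands for the core of the response element (GAAA, any 2 bases and GAAA again, which reads TTTC, any 2 bases and TTTC on the other strand) and for the core of the gamma-activated site (TTC, any 3 bases and GAA). The response element core was present in 5 of the 10 windows, those of Isg15, Ifit1, Ifit3, Bst2 and Stat2, against 2.98% of 32851 windows of the same length. The gamma-activated core was present in those of Irf1 and Bst2, against 7.02% of all windows. The stretches that hold the matches are printed below 5′ to 3′ along the gene's strand, with 20 bases on each side and the matched bases in capitals.
Isg15: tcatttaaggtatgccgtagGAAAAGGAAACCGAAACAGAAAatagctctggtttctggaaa
Ifit1: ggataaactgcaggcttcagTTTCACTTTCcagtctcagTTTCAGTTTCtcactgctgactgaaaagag
Ifit3: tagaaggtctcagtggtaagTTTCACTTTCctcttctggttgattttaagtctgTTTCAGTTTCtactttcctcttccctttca
Bst2: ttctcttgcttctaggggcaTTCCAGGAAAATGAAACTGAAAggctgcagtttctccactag
Stat2: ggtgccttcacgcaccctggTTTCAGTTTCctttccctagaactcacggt
Irf1: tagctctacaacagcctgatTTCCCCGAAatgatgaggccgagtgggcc

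The Isg15 stretch (chr4:156200855-156200916, minus strand) carried 3 overlapping response element cores in one run of capitals. The Ifit1 stretch (chr19:34640765-34640833, plus strand) and the Ifit3 stretch (chr19:34583353-34583436, plus strand) each carried 2 separate cores with the same letters, TTTCACTTTC and then TTTCAGTTTC. In the Bst2 stretch (chr8:71537567-71537628, minus strand) 2 overlapping response element cores ran into a gamma-activated core. Among all 32851 windows, 0.180% held 2 or more response element cores, as did those of Isg15, Ifit1, Ifit3 and Bst2. Stat2 (chr10:128270256-128270305, plus strand) had 1 response element core and Irf1 (chr11:53769904-53769952, plus strand) 1 gamma-activated core. No match to either set of letters lay in the windows of Irf7 and Irf9, which says only that these letters were not there, and no window for Zbp1 was used. A match describes letters and is not a measured binding site.

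The libraries held 23046880 to 26513481 counts, but 5 very abundant entries took 72.4% ± 2.49 (SD, n = 3) of them in wild type and 78.0% ± 0.822 (SD, n = 3) in the knockout. Counts outside these entries, which set the precision for the genes described here, were 6037237 to 7616648 in wild type and 5144725 to 5623112 in the knockout. Apln itself had 29, 7 and 5 counts in the wild-type libraries 1 to 3 and 0 in all 3 knockout libraries, where a count of 0 allows up to 3 counts. Levels are given below as CPM, the counts of a gene per 1000000 counts of a TMM-scaled library, or, to compare genes, as CPM per kilobase of annotated exon. Among all genes tested, edgeR's quasi-likelihood test called 26 at a Benjamini-Hochberg adjusted p under 0.05, of which 17 were higher and 9 lower in the knockout. Without wild-type library 3 this number was 358, and without any 1 of the other 5 libraries it was 0 or 1.

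None of the 8 genes that could be tested passed the test between genotypes. By edgeR's quasi-likelihood test 0 of the 8 tested were called in either direction, against 0.172% of all genes tested (0.112% higher and 0.0595% lower). An unadjusted p under 0.05 was found for 2 of the 8, Stat2 and Zbp1, both lower, against 15.2% of all genes in either direction and 7.66% lower. Every knockout library was below every wild-type library for both of these. The fitted log2 fold change (knockout over wild type) was negative for 4 of the 8 and positive for the other 4, with a median of 0.07 beside -0.01 over all genes tested. The sign of that median was not stable: it was -0.24 without wild-type library 2, 0.23 without wild-type library 3, -0.065 after correction for length and GC content and 0.35 with Ifit3 included in a fit with no filter. The knockout and wild-type libraries did not overlap for 4 of the 9 genes, 3 with lower knockout values (Stat2, Irf9 and Zbp1) and 1 with higher values (Irf7), while 20.9% of all genes tested did not overlap (9.56% lower and 11.3% higher). DESeq2's Wald test gave an adjusted p for 5 of these genes and called 1, Stat2, as lower, against 5.73% of the 10137 genes for which it gave one (2.77% lower). RNA of a bulk sample cannot tell fewer cells of a type from less RNA per cell, which holds for every difference below.

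**Figure D1:**
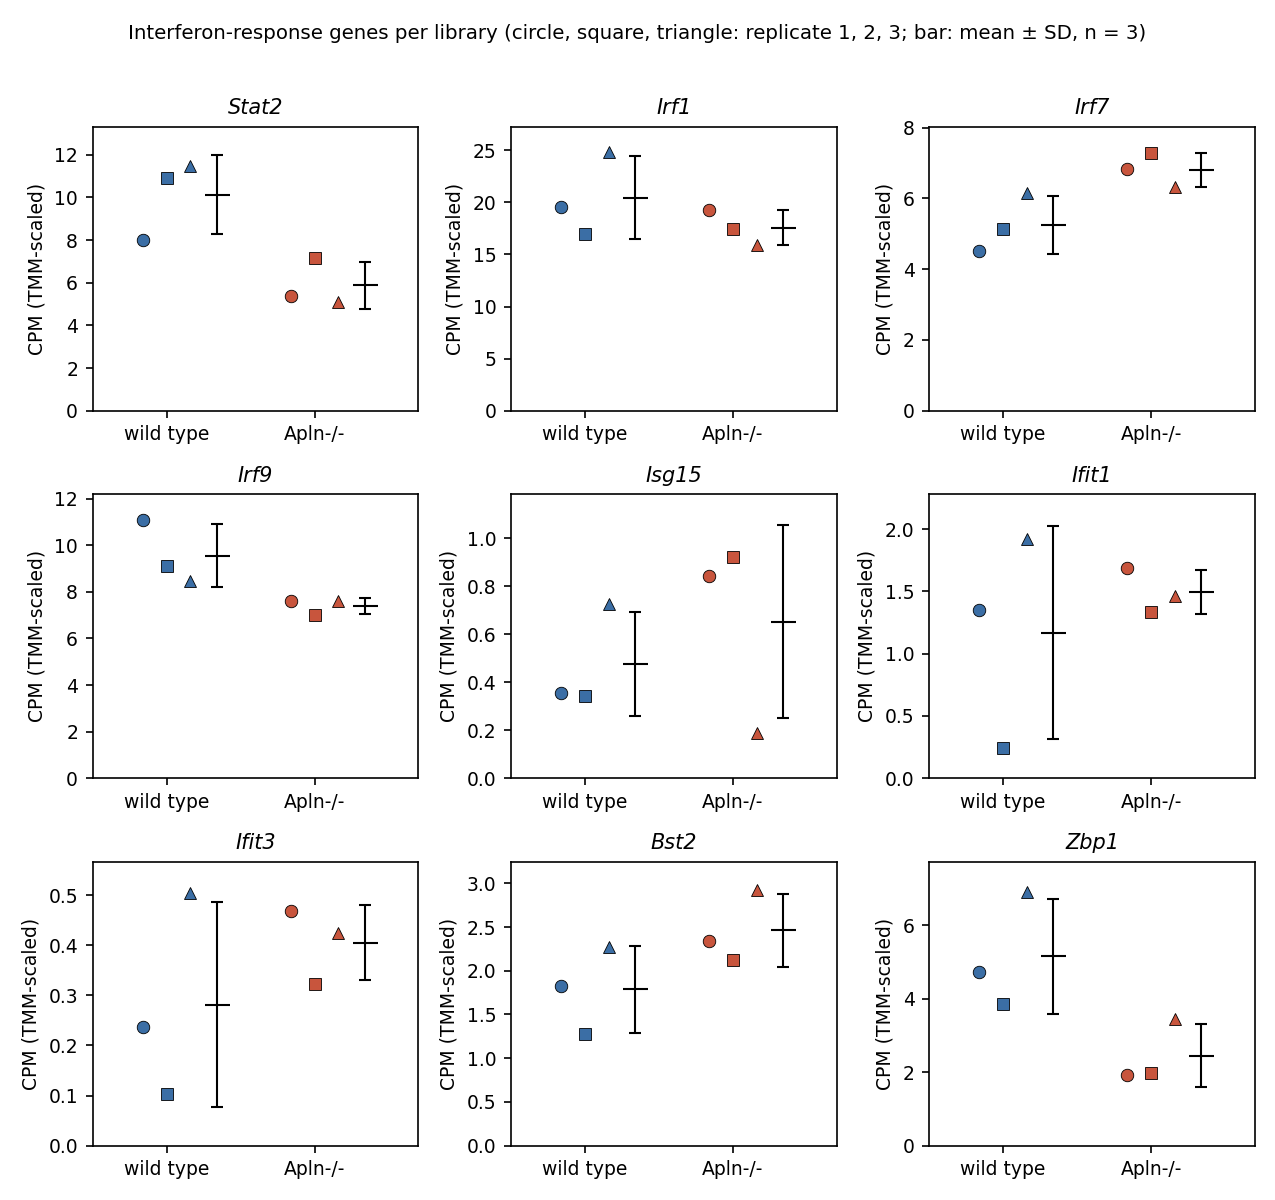
TMM-scaled CPM (vertical axis, from 0, a separate scale for each gene) of the 9 genes in the 3 wild-type (blue) and 3 Apln-/- (red) libraries; circle, square and triangle are replicates 1, 2 and 3 and the bar is the mean ± SD. Stat2, Irf9 and Zbp1 sat lower in all 3 knockout libraries, Irf7 sat higher in all 3, and the other 5 genes overlapped.

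Of the transcription factors, Stat2 (ENSMUSG00000040033, chr10:128270559-128292849, plus strand) differed most between the genotypes. Stat2 encodes the Stat protein particular to the type I and type III interferon complex. Its wild-type levels were 8.003, 10.9 and 11.5 CPM and its knockout levels 5.39, 7.14 and 5.10 CPM in libraries 1 to 3. Every knockout library was below the lowest wild-type library, so the groups did not overlap. The wild-type mean of 10.1 ± 1.86 CPM compared with 5.88 ± 1.11 CPM in the knockout (SD, n = 3 each), and the fitted log2 fold change was -0.79 ± 0.23 (SE), or 1.72-fold lower, which the edgeR test did not call (adjusted p = 0.150). DESeq2 put the adjusted p of Stat2 at 0.0473, and over all alternatives its adjusted p ran from 0.0473 to 0.549.

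Irf9 (ENSMUSG00000002325, chr14:55603571-55610030, plus strand) encodes the DNA-binding partner of Stat2. It was at 11.1, 9.11 and 8.47 CPM in wild type and at 7.59, 7.01 and 7.60 CPM in the knockout. The knockout libraries lay close together and all below the wild-type libraries, with means of 9.56 ± 1.37 and 7.40 ± 0.339 CPM (SD, n = 3 each). Irf9 differed by -0.37 ± 0.21 (SE) on the log2 scale, with an interval from -0.82 to 0.08 (edgeR adjusted p = 0.432). Its exons share 123 bases with Rnf31 on the same strand, where reads of both genes cannot be told apart.

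Irf7 (ENSMUSG00000025498, chr7:141262706-141266481, minus strand), the factor that amplifies type I interferon production, had a fold change of the opposite sign. Its levels were 4.52, 5.12 and 6.14 CPM in wild type and 6.84, 7.28 and 6.32 CPM in the knockout. All 3 knockout libraries were above the highest wild-type library, though library 3 of each genotype differed by little. The means were 5.26 ± 0.821 and 6.81 ± 0.480 CPM (SD, n = 3 each), and the log2 fold change was 0.37 ± 0.23 (SE; edgeR adjusted p = 0.493). Before scaling, the raw counts of Irf7 overlapped, at 114, 149 and 195 in wild type and 146, 158 and 134 in the knockout.

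Irf1 (ENSMUSG00000018899, chr11:53770014-53778374, plus strand) encodes a factor induced mainly by interferon gamma and known to sustain basal antiviral gene expression in epithelium. It was at 19.5, 17.0 and 24.8 CPM in wild type and 19.3, 17.5 and 15.95 CPM in the knockout. The groups overlapped, and wild-type library 3 alone stood above the rest. Its log2 fold change was -0.22 ± 0.18 (SE; edgeR adjusted p = 0.619), and the interval of -0.62 to 0.18 spans a lower and a higher knockout level. It was -0.051 without wild-type library 3 and -0.35 without wild-type library 2. Irf1 shares 135 exon bases with Gm17334 on the opposite strand and Irf7 shares 45 with Phrf1, and whether the counting used strand is not known from the labels.

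Among the effectors, Zbp1 (ENSMUSG00000027514, chr2:173206612-173218923, minus strand) had the largest log2 fold change of the 8 genes tested. Zbp1 encodes a sensor of Z-form nucleic acids that triggers necroptosis and other forms of cell death. Its levels were 4.71, 3.85 and 6.90 CPM in wild type and 1.92, 1.98 and 3.44 CPM in the knockout. Knockout library 3 came near wild-type library 2 but stayed below it, so the groups did not overlap. The means were 5.15 ± 1.57 and 2.45 ± 0.863 CPM (SD, n = 3 each), and Zbp1 was 2.11-fold lower in the knockout, at a log2 fold change of -1.07 ± 0.35 (SE), for adjusted p-values of 0.175 in edgeR and 0.0610 in DESeq2. In the 6 fits that left out 1 library, the log2 fold change of Zbp1 ran from -1.40 to -0.80. That of Stat2 ran from -0.95 to -0.68. Both stayed negative, but as the groups of neither gene overlapped, leaving out 1 library could hardly turn the sign.

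Bst2 (ENSMUSG00000046718, chr8:71534255-71537456, minus strand) encodes tetherin, which holds budding virus particles at the cell surface. It was at 1.82, 1.27 and 2.27 CPM in wild type and 2.34, 2.12 and 2.93 CPM in the knockout. Wild-type library 3 lay between the knockout libraries, so the groups overlapped. The means of Bst2 were 1.79 ± 0.499 and 2.46 ± 0.416 CPM (SD, n = 3 each), with a log2 fold change of 0.46 ± 0.39 (SE; edgeR adjusted p = 0.621). It was 0.26 without wild-type library 2.

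The remaining 3 effectors were counted by few reads. Their promoters hold 2 or 3 response element cores, and that of Bst2 holds 2. Isg15 (ENSMUSG00000035692, chr4:156199424-156200818, minus strand), a ubiquitin-like modifier attached to target proteins, had 9, 10 and 23 counts in wild type and 18, 20 and 4 in the knockout. The highest and the lowest of the 6 scaled levels, 0.922 and 0.189 CPM, were both in the knockout group. The 4 counts of knockout library 3 have an exact 95% Poisson interval of 1.09 to 10.2 counts, which covers counting error only. The log2 fold change of Isg15 was 0.45 ± 0.73 (SE), with an interval from -1.14 to 2.03, so that a fold difference of more than 2 either way was not excluded. It was 0.12 without knockout library 2, 0.88 with knockout library 3 left out and 0.89 with wild-type library 3 left out.

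Ifit1 (ENSMUSG00000034459, chr19:34640871-34650009, plus strand), which binds viral RNA lacking the host cap methylation, had 34, 7 and 61 counts in wild type and 36, 29 and 31 in the knockout. The 3 knockout libraries lay close together, at 1.69, 1.34 and 1.46 CPM, while the wild-type libraries ran from 0.241 to 1.92 CPM. The 7 counts of wild-type library 2 have an exact 95% Poisson interval of 2.81 to 14.4 counts and the 61 of wild-type library 3 one of 46.7 to 78.4 counts, so this spread within wild type was larger than the counting error. The log2 fold change of Ifit1 was 0.35 ± 0.63 (SE; edgeR adjusted p = 0.841). Without wild-type library 2 it was -0.14, so the direction rested on that library.

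Ifit3 (ENSMUSG00000074896, chr19:34583531-34588731, plus strand), a partner of Ifit1 on viral RNA, had 6, 3 and 16 counts in wild type and 10, 7 and 9 in the knockout, or 0.103 to 0.504 CPM over the 6 libraries. The groups overlapped, and with the filter removed its log2 fold change was 0.51 (edgeR adjusted p = 0.872). Its near-copy Ifit3b shares 51.2% of the 50-base stretches of Ifit3 transcripts and had 3, 0 and 0 counts in wild type and 3, 2 and 7 in the knockout. Reads from the shared stretches could be split between the pair or dropped by the authors' counting, so the level of Ifit3 is uncertain. The share was 7.13% for Ifit1, nearly all with Ifit1bl2, and 3.96% or less for the other 7 genes.

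**Figure D2:**
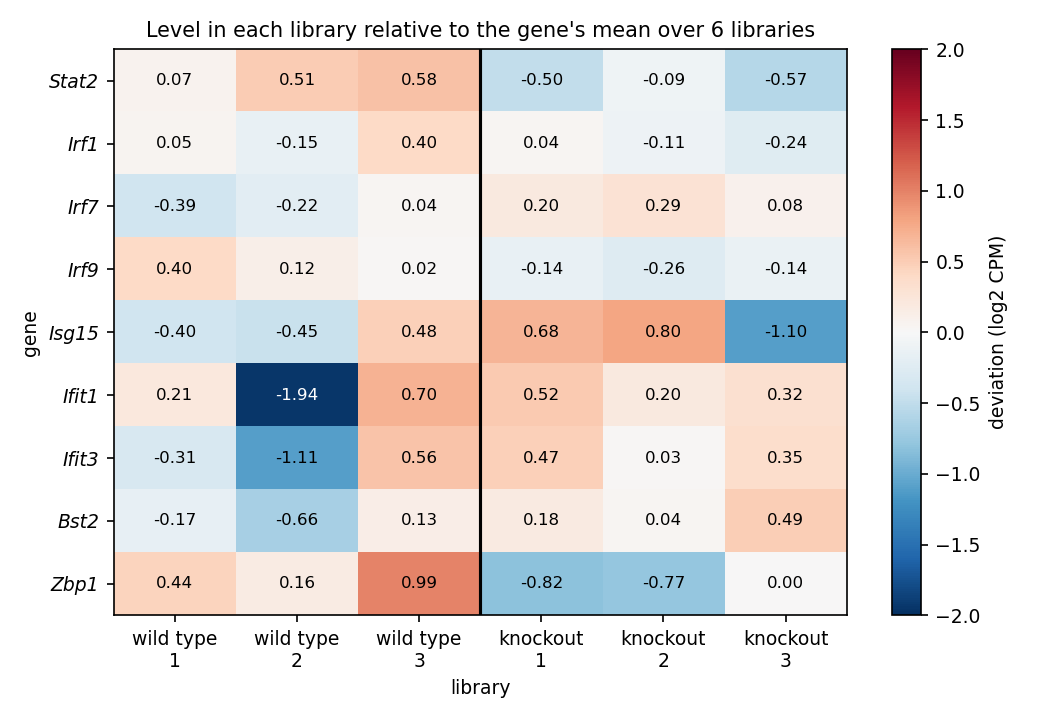
Deviation of each library's log2 CPM (columns) from the gene's mean over the 6 libraries (rows, 9 genes), in log2 units, with a prior count of 2; red is above and blue below the mean. Wild-type library 2 is lowest for Ifit1 (-1.94), Ifit3 (-1.11) and Bst2 (-0.66), and wild-type library 3 is above the mean for all 9 genes.

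Per kilobase of exon, the order of the genes was led by Irf1 in both genotypes, at 5.14 ± 1.00 CPM per kilobase in wild type and 4.42 ± 0.421 in the knockout (SD, n = 3 each). In wild type the order continued with Bst2, Irf9, Stat2, Zbp1 and Irf7, from 1.98 down to 1.39 CPM per kilobase. Neighbours among these 5 differed by less than the larger of their SDs. Isg15 at 0.628, Ifit1 at 0.440 and Ifit3 at 0.161 CPM per kilobase formed the lower end, again with neighbours within their spread. In the knockout the order was Irf1, Bst2 at 2.73, Irf7 at 1.80, Irf9 at 1.37 and Stat2 at 0.992 CPM per kilobase, with gaps beyond the larger SD. Isg15, Zbp1 and Ifit1 followed within their spread and Ifit3 was last at 0.232 CPM per kilobase.

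In CPM, which is not scaled for exon length, the 4 transcription factors supplied most of the summed level. Annotated exon lengths of the 9 genes ran from 756 bases for Isg15 to 5926 bases for Stat2. Bst2, next to Irf1 per kilobase, supplied 4.28% of the summed CPM. Over the 6 libraries together, Irf1 alone supplied 38.3% of the summed CPM of the 9 genes, Irf9 17.1%, Stat2 16.1% and Irf7 12.2%, while Isg15, Ifit1 and Ifit3 supplied 1.13%, 2.68% and 0.691%. By mean CPM, Stat2 was above Irf9 in wild type, at 10.1 ± 1.86 against 9.56 ± 1.37 (SD, n = 3 each), a gap within the SDs. In the knockout Stat2 was below Irf9, at 5.88 against 7.40 CPM. Single libraries went the other way, with Stat2 at 8.003 and Irf9 at 11.1 CPM in wild-type library 1. In knockout library 2 they were at 7.14 and 7.01 CPM. Per kilobase of exon Irf9 was above Stat2 in both genotypes, at 1.77 against 1.71 in wild type and 1.37 against 0.992 in the knockout. The summed level was 51.6, 47.9 and 63.2 CPM in the wild-type libraries and 46.4, 45.6 and 43.4 CPM in the knockout libraries. The wild-type values were all above the knockout values, with means of 54.3 ± 7.97 and 45.1 ± 1.53 CPM (SD, n = 3 each) and a ratio of 0.832, given as a description with no test.

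Summed over the table, wild-type library 3 differed from wild-type libraries 1 and 2 at a chi-square per degree of freedom of 54.8 and 43.9. The value between libraries 1 and 2 was 26.4. This statistic used counts without TMM scaling and included the 5 very abundant entries, so it does not tell which genes differed. Among the 9 genes, wild-type library 3 was the lowest of the 3 for Irf9. It was the highest of the 3 wild-type libraries for 8 of the 9 genes, and for 7 of the 8 tested (87.5%), whereas it was the highest for 34.4% of all genes tested and for 34.9% of the other interferon pathway genes tested. Wild-type library 2 was the lowest of the 3 for 6 of the 9, and for 5 of the 8 tested (62.5%). It was the lowest for 34.6% of all genes tested and for 27.9% of the other interferon pathway genes tested. Among the 6, Isg15, Ifit1 and Ifit3 had only 10, 7 and 3 counts in that library. In the edgeR fit without wild-type library 3, which called 358 of 15749 genes tested, 0 of the 8 were called. At so small a share of all genes, 0 of 8 says little about these genes.

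The coefficient of variation over the wild-type libraries was 73.0% for Ifit1, 72.4% for Ifit3 and 45.5% for Isg15. Over the knockout libraries it was 11.8% for Ifit1, 18.5% for Ifit3 and 61.8% for Isg15. There Isg15 had only 18, 20 and 4 counts and Ifit3 only 10, 7 and 9, so counting error enters these values. Whether the spread differed between genes or groups was not tested. The ratio of the highest to the lowest of the 6 libraries was 7.98 for Ifit1 and 4.88 for Isg15, and only 1.56 to 1.61 for Irf1, Irf9 and Irf7.

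The rest of the pathway was read from 96 further genes of the table, of which 86 passed the filter on low counts. By edgeR's quasi-likelihood test 0 of the 86 were called, and 15 (17.4%) had an unadjusted p under 0.05, beside 15.2% of all genes. Of these, 12 were lower and 3 higher, where the shares of all genes were 7.66% and 7.53%. The count of 15 became 5 without knockout library 1, 9 without knockout library 3 and 9 after correction for length and GC content. Over all genes tested the count fell too, from 2297 of 15122 to 1342 of 15947, 1640 of 15983 and 1735 of 15111. Without wild-type library 1 or 3 the pathway count was 17 or 18, beside 2370 of 15808 or 3073 of 15749 genes. It was 13 without library 2 of either genotype. Negative log2 fold changes made up 65.1% of the 86, beside 50.5% of all genes tested, and the median was -0.14 beside -0.01. The groups did not overlap for 14 (16.3%) of them, 10 with lower and 4 with higher knockout values, beside 20.9% of all genes tested.

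**Figure D3:**
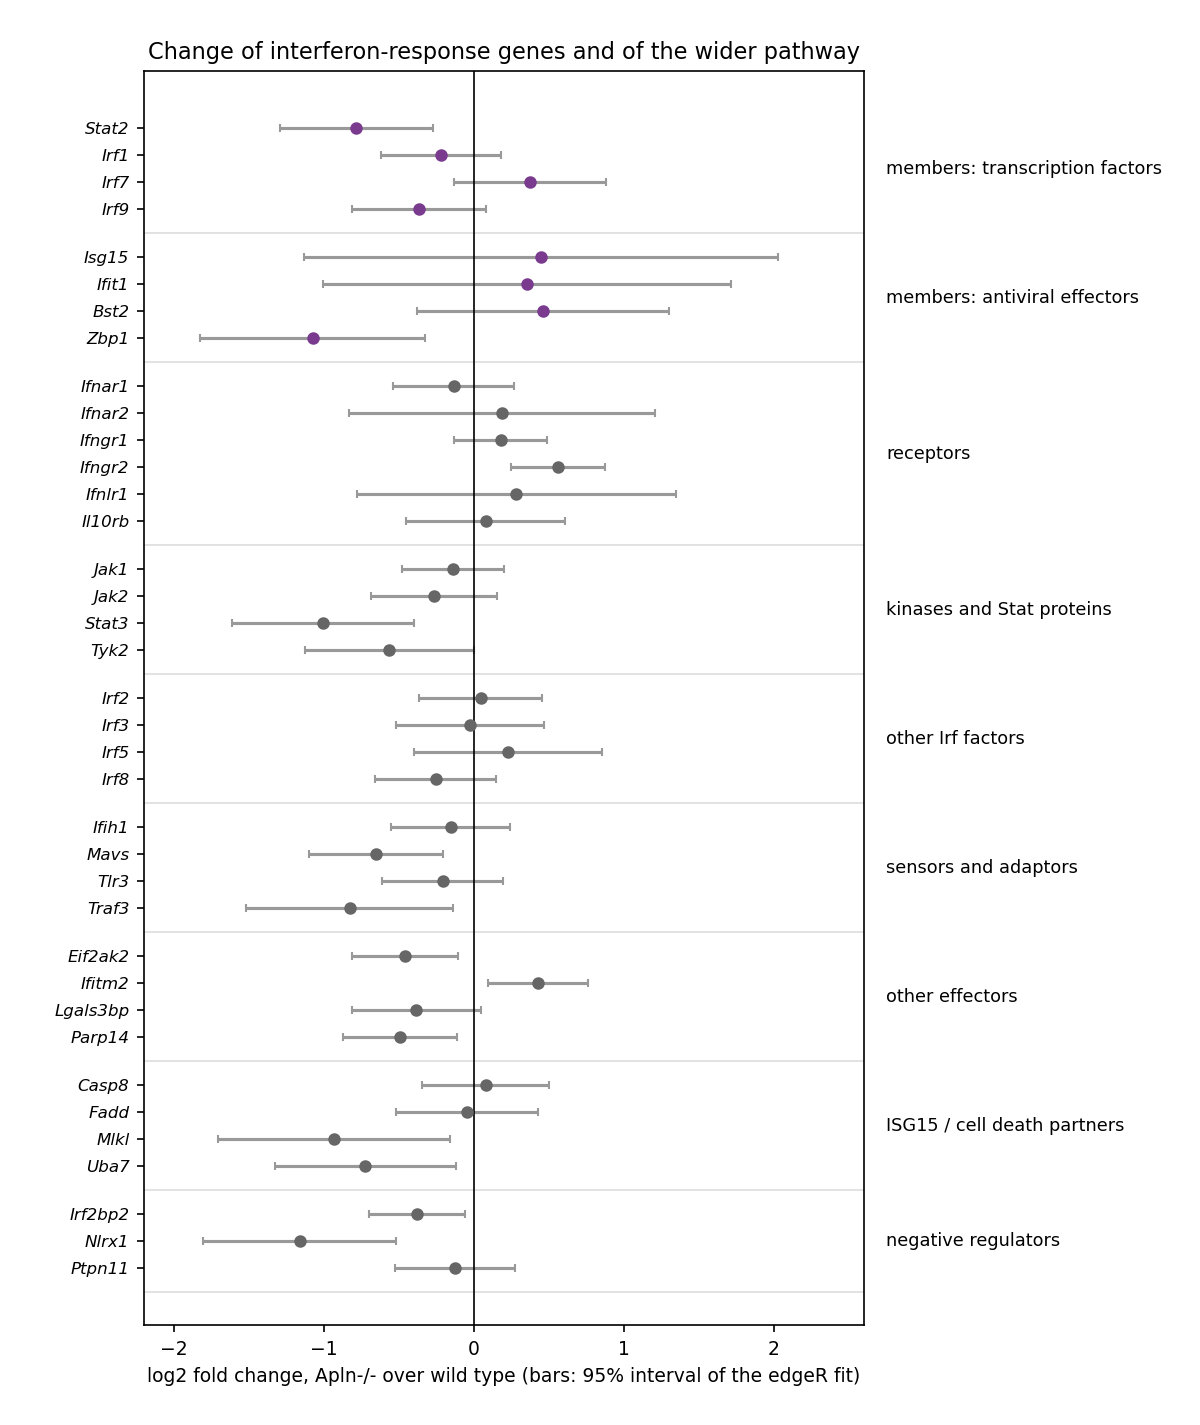
Fitted log2 fold change, Apln-/- over wild type (horizontal axis), with its 95% interval from the edgeR fit, for the 8 tested genes (purple) and tested genes of the wider pathway (grey), grouped by role. Stat2 and Zbp1 are the only purple points whose interval stays below 0, and none of the genes shown passed the adjusted threshold of edgeR, while DESeq2 passed Stat2, Stat3, Nlrx1 and Ifngr2.

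Of the ligands, 3 were in the table and none passed the filter. Ifnk had 0.433 ± 0.434 CPM in wild type and 0.390 ± 0.312 CPM in the knockout (SD, n = 3 each), Ifnz had 5 counts, all in knockout library 1, and Ifng had 1 count in all 6 libraries. The other 8 ligand genes of the list were not found under their symbols in the count table. All 6 receptor genes were measured. The chains of the type I receptor, Ifnar1 and Ifnar2, had log2 fold changes of -0.13 and 0.19 with edgeR adjusted p of 0.787 and 0.896. The type III receptor chain Ifnlr1 averaged 2.37 ± 0.360 CPM in wild type and 2.88 ± 1.82 CPM in the knockout (SD, n = 3 each), with knockout library 1 at 0.843 CPM far below the other two at 3.46 and 4.34 CPM. Its partner Il10rb had a log2 fold change of 0.08.

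The signalling chain of the interferon gamma receptor, Ifngr2, had the smallest p of the receptors. It was at 23.1, 22.8 and 20.3 CPM in wild type and 31.7, 33.3 and 32.6 CPM in the knockout. All knockout libraries were above all wild-type libraries, with a log2 fold change of 0.56 ± 0.14 (SE), and adjusted p-values were 0.108 in edgeR and 0.0292 in DESeq2. The ligand-binding chain Ifngr1 also did not overlap, at means of 28.1 ± 1.32 CPM in wild type and 31.8 ± 2.15 CPM in the knockout (SD, n = 3 each), with a log2 fold change of 0.18 (edgeR adjusted p = 0.607), or 0.052 after correction for transcript length and GC content.

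Of the 5 receptor kinases and Stat proteins of the list, 0 passed the edgeR test. An unadjusted p under 0.05 in that test was found for 1 (20%), beside 15.2% of all genes tested. The kinases Jak1 and Jak2 had log2 fold changes of -0.14 and -0.26 with edgeR adjusted p of 0.725 and 0.565. For Tyk2, the kinase bound to Ifnar1, the groups did not overlap, and the log2 fold change was -0.56 (edgeR adjusted p = 0.331), or -0.31 after correction for length and GC content. Stat3, which restrains interferon signalling and serves cytokines such as those of the interleukin-6 family, was at 24.1, 39.5 and 21.9 CPM in wild type and 9.09, 19.5 and 14.0 CPM in the knockout. The groups did not overlap although both were wide. The log2 fold change of Stat3 was -1.01 ± 0.28 (SE), for adjusted p-values of 0.129 in edgeR and 0.0107 in DESeq2. After correction for length and GC content the log2 fold change was -0.78.

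Over the 5 other interferon regulatory factors tested the log2 fold changes had a median of 0.04. In the edgeR test 0 of them had an unadjusted p under 0.05, beside 15.2% of all genes tested. Irf3, which starts interferon transcription after sensing of nucleic acids, averaged 11.6 ± 0.716 CPM in wild type and 11.4 ± 3.30 CPM in the knockout (SD, n = 3 each). Irf2, Irf5 and Irf8 had log2 fold changes of 0.04, 0.23 and -0.25. Of 12 sensors and adaptors tested, 10 (83.3%) had negative log2 fold changes, beside 50.5% of all genes tested. By edgeR 2 (16.7%) had an unadjusted p under 0.05, beside 15.2% of all genes, and 0 passed the adjusted threshold. Mavs, the mitochondrial adaptor of the RNA sensors, averaged 17.5 ± 3.46 CPM in wild type and 11.1 ± 1.69 CPM in the knockout (SD, n = 3 each) without overlap, with a log2 fold change of -0.66 (edgeR adjusted p = 0.165). The adaptor Traf3 had a log2 fold change of -0.83 (edgeR adjusted p = 0.244), or -0.57 after correction for length and GC content. The RNA sensors Ifih1 and Tlr3 had log2 fold changes of -0.16 and -0.21.

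Among the other antiviral effectors, 40 were tested and 0 called by edgeR. Of the 40, 7 had an unadjusted p under 0.05, 5 lower and 2 higher, and the median log2 fold change was -0.17. Eif2ak2, the kinase PKR that stops translation on double-stranded RNA, averaged 26.4 ± 2.70 CPM in wild type and 19.2 ± 2.01 CPM in the knockout (SD, n = 3 each), with a log2 fold change of -0.46 (edgeR adjusted p = 0.214). Ifitm2, which blocks virus entry at endosomes, had means of 109.9 and 147.8 CPM in wild type and knockout, with a log2 fold change of 0.43 (edgeR adjusted p = 0.221), and that log2 fold change was 0.10 after correction for transcript length and GC content. Parp14 and Lgals3bp had log2 fold changes of -0.49 and -0.38 with edgeR adjusted p of 0.218 and 0.388. After correction for length and GC content these fold changes were -0.33 and -0.38.

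Partners of the 9 genes in ISG15 conjugation and in cell death numbered 9, and 2 (22.2%) had an unadjusted p under 0.05, both lower. The share of all genes tested was 15.2% in either direction and 7.66% lower. Uba7, the activating enzyme that charges Isg15, was at 5.27, 5.84 and 5.04 CPM in wild type and 2.95, 2.67 and 4.15 CPM in the knockout. The groups did not overlap, and the log2 fold change was -0.72 (edgeR adjusted p = 0.244). Mlkl, the membrane-breaking protein of necroptosis downstream of Zbp1, had a log2 fold change of -0.93 (edgeR adjusted p = 0.242) and overlapping groups. Casp8 and Fadd, which hold necroptosis in check, had log2 fold changes of 0.08 and -0.04.

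Of 10 negative regulators, 2 (20%) had an unadjusted p under 0.05, both lower, beside 15.2% of all genes tested (7.66% lower). Nlrx1, a mitochondrial protein that dampens Mavs signalling, was at 4.60, 6.50 and 4.82 CPM in wild type and 2.20, 2.07 and 2.83 CPM in the knockout. No knockout library reached the lowest wild-type library, and the log2 fold change was -1.16 ± 0.30 (SE), for adjusted p-values of 0.104 in edgeR and 0.0169 in DESeq2. Irf2bp2, a corepressor of Irf2, averaged 86.4 ± 11.3 CPM in wild type and 66.3 ± 1.31 CPM in the knockout (SD, n = 3 each), with a log2 fold change of -0.38 (edgeR adjusted p = 0.245), or -0.17 after correction for length and GC content. The phosphatase gene Ptpn11 had a log2 fold change of -0.12.

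Transcript length moved with the fold changes over all genes. Spearman's rho between the log2 fold change and the longest annotated transcript was -0.26 across 15110 genes, which share the same 6 libraries. The median log2 fold change ran from 0.26 in the shortest eighth of the genes to -0.19 in the longest. Isg15 and Bst2 lie in the shortest eighth, and after correction for length and GC content their log2 fold changes were 0.16 and 0.19 in place of 0.45 and 0.46. Stat2 and Irf9 lie in the sixth eighth, where the median was -0.08, and after correction they were at -0.66 and -0.31. Zbp1 was at -1.05 and Irf7 at 0.48, and none of the 8 genes changed direction. By edgeR 0 of the 8 were called in the corrected fit, which called 0 of all 15111 genes tested in it.

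**Figure D4:**
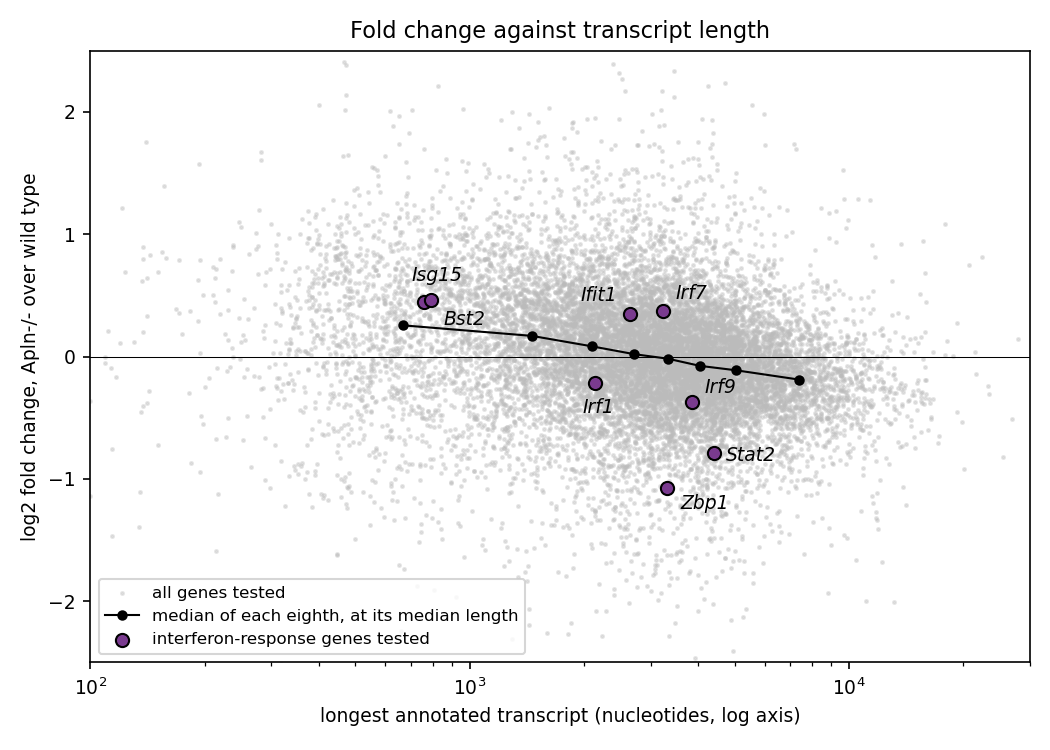
Log2 fold change, Apln-/- over wild type (vertical axis), against the longest annotated transcript in nucleotides (horizontal log axis) for all genes tested (grey; 73 lie outside the axes) and the 8 tested interferon genes (purple); black points are the median of each eighth of genes by length, drawn at its median length. Stat2 and Zbp1 lie below the black line by more than the other genes do, and Isg15 and Bst2 lie at its short, positive end.

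Several of the 9 genes are also expressed by immune cells, whose markers were therefore summed in each library. Markers of crypt epithelium summed to 4199 ± 684 CPM in wild type and 4417 ± 533 CPM in the knockout (SD, n = 3 each), with all 14 genes of the list present. Macrophage and dendritic cell markers summed to 16.5 to 27.7 CPM in wild type and 17.3 to 22.0 CPM in the knockout, with 8 of 11 genes under a mean of 1 CPM and Adgre1 at 1 count in all libraries. T cell markers summed to 2.49 to 6.97 CPM and 3.30 to 4.92 CPM, with 11 of 13 genes under 1 CPM and Cd3d at 1 count. B and plasma cell markers summed to 7.53 to 152 CPM and 41.3 to 142 CPM, with 4 of 6 genes under 1 CPM. Endothelial markers summed to 1.01 to 4.40 CPM and 0.645 to 1.65 CPM, with 5 of 6 genes under 1 CPM. Stromal markers summed to 1.48 to 32.2 CPM and 8.99 to 23.8 CPM, with 1 of 7 genes under 1 CPM. S100a9, the 1 neutrophil marker measured, had 2 counts in all. The exact two-sided permutation p was 0.3 or above for each of the 7 lists and the adjusted p was 1, in a design of 3 against 3 that allows no p below 0.1.

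Ptprc, which encodes the leukocyte antigen CD45 used to remove leukocytes in the sort, was at 2.81, 3.30 and 2.17 CPM in wild type and 1.26, 1.80 and 1.18 CPM in the knockout. Its knockout values were lower without overlap, as for 9.56% of all genes tested, with a log2 fold change of -0.96 (edgeR adjusted p = 0.264). Ptprc belongs to the macrophage and dendritic cell list, whose sum overlapped between the genotypes. Wild-type library 3, the highest for Zbp1, Stat2 and Irf1, had the lowest sums of B cell, stromal, T cell, endothelial and macrophage markers of the 3 wild-type libraries. The part of immune cells in the levels of the 9 genes was not tested.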

How the data were processed

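RNA-seq of sorted crypt cells was compared between 3 wild-type and 3 Apln-/- libraries. The deposited knockout columns are numbered 1, 3 and 4; by the sample titles they are called knockout libraries 1, 2 and 3 here. The authors deposited raw read counts per gene, whole numbers without normalization. The submitters' processing notes list the tools STAR 2.6.1 and HTSeq and the build mm10. The sources used here give neither the annotation release nor whether reads were assigned by strand. RNA was amplified with Ovation Pico WTA V2 and tagged with Nextera DNA Flex, per the labels' protocols. Reads carried no molecular identifiers as far as the sources tell, so Poisson intervals and the floor of 3 counts (0.0945 to 0.142 CPM) cover counting error only. Symbols, coordinates and exon lengths came from GENCODE vM21 of the same build, and promoter sequences from RefSeq (GRCm38.p6).

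In R 4.3.3 with edgeR 4.0.16, filterByExpr (minimum count 10, total 15) kept 15122 genes, library sizes were scaled by TMM, and genotypes were compared by glmQLFit and glmQLFTest with Benjamini-Hochberg adjustment over all genes tested (threshold 0.05). The common biological coefficient of variation was 0.298. DESeq2 1.42.0, other scalings and filters, a replicate block, a length and GC correction (loess, span 0.5) and fits without each library were alternatives. Libraries of a group differed beyond sampling noise (chi-square per degree of freedom 7.60 to 54.8).

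The 9 genes, the pathway lists and the marker lists were chosen with earlier results of these data known. From the pathway lists the text names every receptor, Jak1, Jak2, Tyk2 and Irf3, in each other list the 2 genes of highest mean CPM and the 2 of lowest p, and any gene called, except a few genes that are not reported here; Ptprc, Ifng and Ifit3b were added after their values were seen.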

Additional observations from a re-analysis of the deposited data

How the results depend on the processing

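The number of the 9 interferon genes called was 0 under every alternative except DESeq2, which called 1. Among all genes, edgeR called 26, against 1 with RLE scaling, 1 with upper-quartile scaling, 1 without the 5 most abundant entries, 629 with no filter, 117 with at least 1 CPM in 3 libraries, 581 with DESeq2 and 0 with the length and GC correction; leaving out 1 library gave 0 to 358, with 358 without wild-type library 3 and 0 or 1 without any other. The cause was not tested. Of the wider pathway, 0 were called, against 2 with no filter (Stat3 and Nlrx1), 3 with DESeq2 (Stat3, Nlrx1 and Ifngr2) and 1 with the replicate block (Stat3). The replicate block called 173 of 15122 genes tested and 0 of the 8 interferon genes tested. Libraries with the same replicate number deviated together only weakly (r of 0.0406, 0.0569 and 0.0109), so the numbers were not taken as pairs. The length and GC correction turned the log2 fold change of Casp8 to -0.0225, of Fadd to 0.0346 and of Ptpn11 to 0.12. Leaving out 1 library gave -0.35 to -0.051 for Irf1, 0.26 to 0.50 for Irf7, -0.44 to -0.26 for Irf9, 0.12 to 0.89 for Isg15, 0.26 to 0.68 for Bst2, -0.14 to 0.93 for Ifit1, -0.23 to 0.18 for Irf3, -0.13 to 0.18 for Irf2, -0.0638 to 0.83 for Ifnar2, -0.13 to 0.72 for Ifnlr1, -0.0345 to 0.28 for Il10rb, -0.0819 to 0.31 for Casp8 and -0.19 to 0.10 for Fadd. It also took the knockout to wild-type ratio of summed markers across 1, with 0.983 to 1.16 for crypt epithelium, 0.688 to 1.084 for T cells, 0.477 to 1.12 for B and plasma cells and 0.547 to 1.39 for stroma. For single genes, 493 of the refitted log2 fold changes kept direction and side of the threshold, 17 changed sign and 7 passed it. Isg15, Ifit1 and Ifit3 had only 3 to 61 counts per library, so that counting error is larger for them than for the other 6 genes.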
